A study of Sus scrofa with 12 samples.

Results

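The transcripts of the core autophagy machinery were followed through in vitro maturation of porcine oocytes. The set holds 40 genes chosen by name, from the kinase complex that starts autophagy to the receptors that select its cargo, and all 40 were matched to an Ensembl identifier among the 31908 that each library lists. Of the 40, 39 were named by the Ensembl gene name table and BNIP3 only by the gene list in the supplement of the study. In all, 30 of them had a mean of at least 1 FPKM (a fragment count scaled by the authors to transcript length and library size) over the 12 libraries and were tested.

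Autophagy encloses parts of the cytoplasm in a double membrane and delivers them to the lysosome. The ULK kinase complex starts the process, a lipid kinase complex built on Beclin 1 marks the site, ATG9A, the ATG2 proteins and VMP1 supply membrane, and 2 ubiquitin-like conjugation systems attach proteins of the ATG8 family, LC3 and GABARAP, to the growing membrane. Receptors such as p62 hold cargo to these proteins, and mitophagy receptors do so for mitochondria. In mammalian eggs the pathway is best known for the breakdown of maternal proteins after fertilization.

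Oocytes came from antral follicles of ovaries of prepubertal gilts and were cultured inside their cumulus complexes in a medium with follicular fluid, epidermal growth factor and gonadotropins. By the labels they were collected at 0h, 22h or 46h of culture, and the cumulus cells were stripped off. The series description names the 3 groups germinal vesicle, pre-metaphase I and metaphase II but puts the second at 24h, and the share of oocytes at each stage in these pools is not given in the sources used here. Each stage has 4 libraries, each made from a pool of oocytes, and nothing states that the 4 came from separate cultures, so p-values measure the spread between these pools, which may be technical. The cDNA was primed at the poly(A) tail by the SMART-Seq2 protocol, so a level stands for the polyadenylated share of a transcript.

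Total FPKM per library ranged from 697468 to 802184, genes with at least 1 FPKM fell from between 6939 and 7895 at 0h to between 5819 and 6076 at 46h, and the 13 mitochondrially encoded protein genes made up between 1.79% and 3.76% of FPKM at 0h, between 8.06% and 12.02% at 22h and between 12.8% and 16.7% at 46h. Read counts were not at hand, so the depth is unknown. All 12 matched oocyte markers had a stage mean of 1 FPKM or more at 0h and 22h, and 10 of them at 46h. Of 19 matched cumulus and granulosa markers, 2 reached a stage mean of 1 FPKM, VCAN and STAR, while AMHR2, LHCGR, INHA and LUM were listed at 0 throughout. The others were above 0 in at least 1 library, among them FSHR, CYP11A1, GJA1 and COL1A2, at up to 0.14, 0.31, 0.33 and 0.93 FPKM. The summed level of that list ranged per library over 37.8–86.2 FPKM (0h), 52.7–82.6 (22h) and 111–140.1 (46h), carried by VCAN, and its part in the results was not tested. Of 4 blood and immune markers, summing to 0.09 to 3.05 FPKM per library, CD68 and HBB were listed at 0, and CD3E made up most of the sum at 0h and 22h, with means of 1.57 FPKM at 0h, 1.58 at 22h and 0.07 at 46h. Its part was not tested either. Replicate 4 of 0h correlated least with its group (r from 0.934 to 0.970 over the genes tested).

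Because the libraries start at the poly(A) tail, the annotated 3′ ends are shown first. In the RefSeq models on Sscrofa11.1, 32 of the 40 members had a cleavage hexamer (AATAAA or ATTAAA) in the last 40 bases of a 3′ UTR long enough to search. In 3 of these 32 (9.38%), the 100 bases before the hexamer also held TTTTAT or TTTTAAT, the letters of the cytoplasmic polyadenylation element that CPEB proteins bind in oocyte mRNAs. Among all genes searched in the same way, 2292 of 11428 (20.1%) held these letters, and among those averaging 1 FPKM or more, 1095 of 4214 (26.0%), beside 3 of 23 members (13.0%) at that level. Only the mRNA strand was searched, and the element may overlap the hexamer. The 3 members were ATG16L1, ATG14 and WIPI2, and their windows are given beside those of 5 members that lacked the letters, the main pair of the ATG8 family and 3 others described below, with the hexamer and the element in capitals:
ATG16L1, chr15:133693390-133693419, plus strand: ccagggcacatcTTTTATttatttaattac
ATG14, chr1:184701042-184701064, minus strand: TTTTATtgtattactacAATAAA
WIPI2, chr3:3830928-3830946, plus strand: TTTTATtttgttaATTAAA
MAP1LC3B, chr6:1919892-1919921, minus strand: aagtccagctagAATAAAtaaccagtgctt
GABARAPL2, chr6:12122225-12122254, minus strand: taaataattaacAATAAAacttataaaggc
FUNDC1, chrX:39726200-39726229, minus strand: gataaaatgctaAATAAAactccaactttc
BNIP3, chr14:140362137-140362166, minus strand: ggaatagaaaaaAATAAAtcttggccaacc
ATG3, chr13:147309564-147309593, plus strand: gcttatttgtttAATAAAaatgagtgtaaa
In ATG16L1 the element ended 36 bases before the hexamer, which lies outside the window shown, in ATG14 it ended 11 bases before and in WIPI2 7 bases before. The 3 genes had different courses: ATG16L1 peaked at 22h, ATG14 fell by 22h and WIPI2 passed in no comparison, as described with their groups. A match is a match of letters and says nothing of binding.

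For the comparisons, limma was run on log2(FPKM + 1) of the 7013 genes that passed the same filter, with all 12 libraries in 1 fit. A gene passed when the change exceeded 1.5-fold in either direction and the two-sided p, adjusted by Benjamini and Hochberg over those genes, stayed below 0.05. Each log2 change below is a difference of stage means of log2(FPKM + 1), which understates the change of low genes, and SE is its standard error. FPKM is relative to the library, so less of a transcript per oocyte and more of the other transcripts cannot be told apart, nor can fewer cells of a type and less RNA per cell. The 3 comparisons share libraries.

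Of the 30 members tested, 20 passed in at least 1 comparison. At 22h against 0h, 10 passed, 3 higher and 7 lower, where 26.7% of all genes tested passed (7.84% higher and 18.9% lower). Between 22h and 46h, 14 passed, 3 higher and 11 lower, against 42.4% of all genes (9.87% higher and 32.6% lower). At 46h against 0h, 18 passed, 4 higher and 14 lower, against 55.9% of all genes (16.8% higher and 39.1% lower). As shares of the 30 members these are 33.3%, 46.7% and 60.0%, near the background in each comparison, so the counts are not a result about autophagy genes, and what follows is which members moved. The median log2 change of the members was -0.03 at 22h against 0h, -0.19 at 46h against 22h and -0.60 at 46h against 0h, beside 0.00, -0.26 and -0.25 for all genes tested. With median-of-ratios scaling, the median of the members at 46h against 0h was -0.38, beside 0.00 for all genes tested. With quantile normalization it was 0.13, beside 0.37. Over the 19 members with a mean of 5 FPKM or more it was 0.16, beside -0.09 for all such genes. Its sign thus depended on the scaling and the filter. It lay below that of all genes with both scalings and above it with that filter. The split between members passing as higher and as lower depended on the scaling. With median-of-ratios scaling 8 members and with quantile normalization 11 members passed as higher at 46h against 0h. The shares of all genes passing as higher with these scalings are not given here. These counts are therefore not a result about autophagy genes. Without replicate 4 of 0h, 10, 16 and 16 members passed in the 3 comparisons in the same order.

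**Figure D1:**
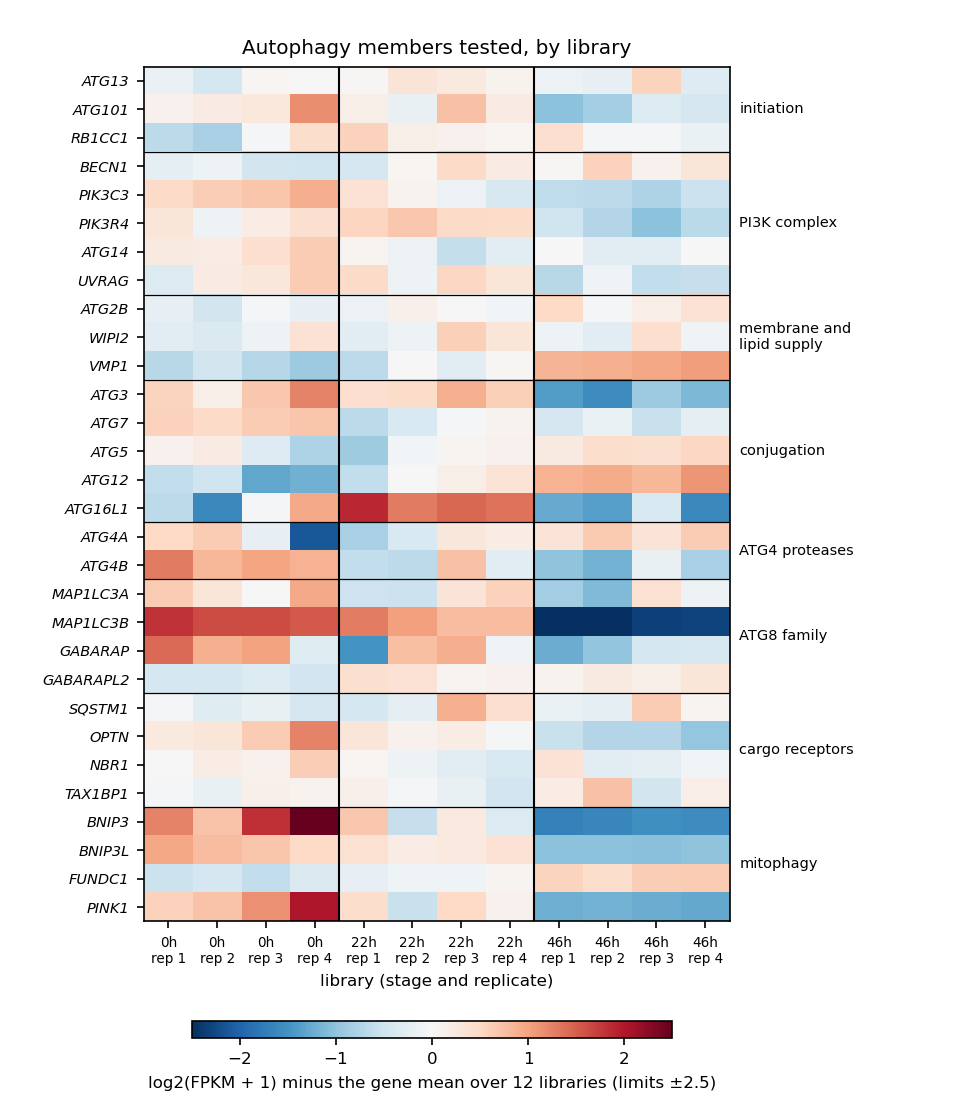
Heat map of the 30 members tested (rows, grouped by role) in the 12 libraries (columns, 4 each of 0h, 22h and 46h). Colour gives log2(FPKM + 1) minus the mean of the gene over the 12 libraries, with the scale ending at 2.5 in either direction; MAP1LC3B, BNIP3 and PINK1 turn from red at 0h to blue at 46h, VMP1, ATG12 and FUNDC1 turn from blue to red, and ATG16L1 is highest in the 4 libraries of 22h.

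The ATG8 family holds the ubiquitin-like proteins that are joined to the autophagosome membrane. On the log2(FPKM + 1) scale, the largest change among the 30 members at 46h against 0h was in this family. Mean FPKM fell by a larger ratio for BNIP3 (66.7-fold) and PINK1 (37.8-fold), described below. Their means at 46h were 0.17 and 0.14 FPKM, so these ratios rest on very low values. MAP1LC3B, the LC3 form by which autophagosomes are usually marked, fell 19.5-fold in mean FPKM between 0h and 46h, whereas GABARAPL2 (also GATE-16), of the sister branch, rose 1.53-fold. At 0h these genes were about equally abundant, and at 46h GABARAPL2 made up nearly the whole of the family's FPKM.

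MAP1LC3B (ENSSSCG00000002655) lies on chromosome 6 of Sscrofa11.1 from 1919879 to 1941069. It was at 455, 404, 406 and 378 FPKM in replicates 1 to 4 of 0h, at 318, 265, 221 and 221 at 22h, and at 20.6, 13.4, 25 and 25.2 at 46h. No library of a later stage reached the lowest of the stage before. Its log2 change was -0.69 at 22h against 0h (SE 0.200, adjusted p = 0.0175, limma) and -3.57 at 46h against 22h (SE 0.200, adjusted p = 4.33e-09). The first step was lost without replicate 4 of 22h, at -0.63 with an adjusted p of 0.0540. The change over the whole course, -4.26 (adjusted p = 4.03e-10), ranged from -4.38 to -3.84 over the alternatives and passed in each.

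GABARAPL2 (ENSSSCG00000002707), on the same chromosome from 12122219 to 12132986, stood at 390.2, 391, 413 and 377 FPKM at 0h, at 695, 682, 553 and 570.0 at 22h, and at 557, 615, 584 and 649 at 46h. All libraries of 22h and 46h were above all of 0h, while those of 22h and 46h overlapped. It rose by 22h, with a log2 change of 0.66 (SE 0.139, adjusted p = 0.00269), and was at 0.61 at 46h against 0h (adjusted p = 0.00147), a call lost with TPM, at 0.51, and without replicate 4 of 46h, at 0.57. Within single libraries, where scaling cancels, log2(MAP1LC3B/GABARAPL2) lay between -0.03 and 0.22 at 0h, between -1.37 and -1.13 at 22h and between -5.51 and -4.55 at 46h. This pair was picked after the values were seen, and its ratio is given as a description.

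GABARAP, the founding member of the sister branch, was less abundant and varied more between libraries. It was at 21.8, 14.7, 16.0 and 5.87 FPKM at 0h, 2, 13.3, 14.97 and 6.97 at 22h, and 2.58, 3.28, 5.27 and 5.44 at 46h. All stages overlapped except 46h with 0h, and the log2 change of -1.52 at 46h against 0h passed (SE 0.473, adjusted p = 0.0118) but not with quantile normalization, at -0.85. At 22h against 0h its change of -0.73 did not pass (adjusted p = 0.254), and it was -0.23 without replicate 1 of 22h and -1.09 without replicate 4 of 0h.

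MAP1LC3A was low throughout, at 3.62, 2.69, 2.02 and 4.73 FPKM at 0h, 1.08, 1.07, 2.73 and 3.46 at 22h, and 0.63, 0.40, 2.87 and 1.73 at 46h, with overlap between each pair of stages. Its log2 change at 46h against 0h, -0.90 (adjusted p = 0.0315), was lost in 7 of the 21 alternatives that kept the gene (adjusted p from 0.00761 to 0.587), among them the fits without replicate 1 or 4 of 0h and without replicate 1 or 2 of 46h. The fifth gene, GABARAPL1, was below the filter, with at most 0.18 FPKM in any library. Per library, MAP1LC3B made up 48.5–52.3% of the summed FPKM of the 5 genes at 0h, 27.5–31.3% at 22h and 2.13–4.05% at 46h. The share of GABARAPL2 was 44.8–49.4%, 68.4–71.1% and 94.6–97.3%. The genes are related in sequence, and RSEM shares out reads that fit several genes by an estimate. How far this affects the split between them was not tested, as their sequences were not compared.

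**Figure D2:**
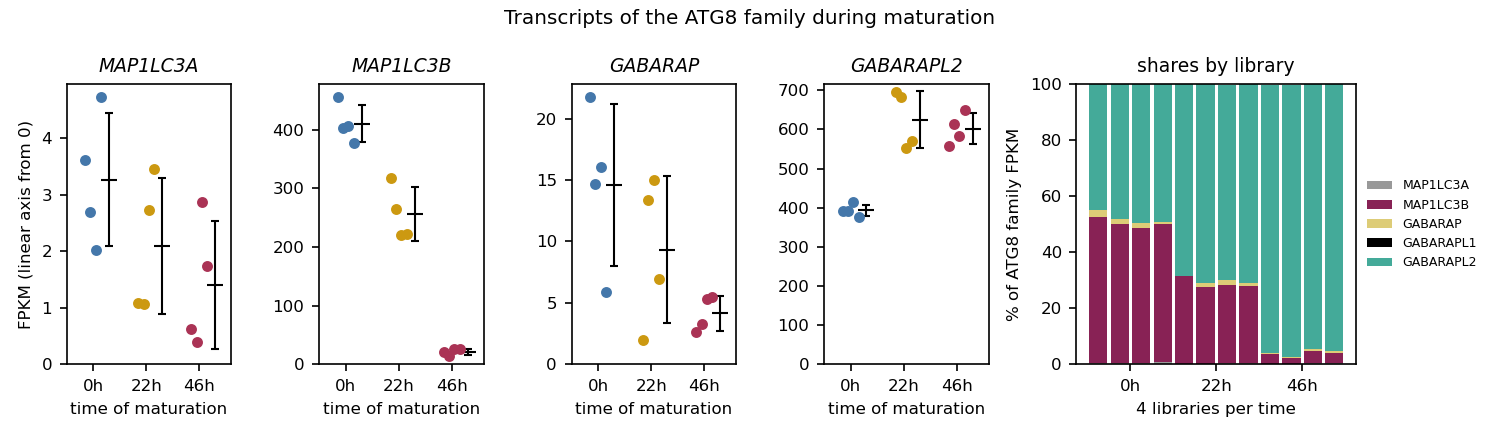
FPKM (linear axis from 0) of the 4 tested genes of the ATG8 family by time of maturation, with a point per library and a bar for mean ± SD (n = 4), and at the right the share of each of the 5 genes in the summed FPKM of the family for each of the 12 libraries. MAP1LC3B holds 48.5% or more in each library of 0h and at most 4.05% at 46h.

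The ATG4 proteases trim ATG8 proteins before they are joined to lipid and cut them off again. ATG4A was the most abundant of all 30 members on average and varied widely at 0h, at 867, 946, 530.3 and 140 FPKM, then 351, 469, 744 and 699.8 at 22h and 767, 962, 764 and 953 at 46h. The 140 FPKM came from replicate 4, and the stages overlapped apart from 22h and 46h. None of its comparisons passed (log2 change 0.78 at 46h against 0h, adjusted p = 0.161, and 0.18 without replicate 4 of 0h). ATG4B, the most active form in mammals, was far less abundant. It was at 8.09, 5.57, 6.35 and 5.76 FPKM at 0h, 1.43, 1.35, 5.21 and 2.10 at 22h, and 0.86, 0.64, 2.28 and 1.13 at 46h. The libraries of 22h were all below those of 0h, and replicate 3 was the highest at both later stages. ATG4B fell by 22h (log2 change -1.19, standard error 0.291, adjusted p = 0.00704) and was at -1.78 at 46h against 0h (adjusted p = 9.76e-05). ATG4C and ATG4D were below the filter, at no more than 0.16 and 0.68 FPKM.

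Both conjugation systems use the E1-like ATG7, with the E2-like ATG3 for ATG8 proteins and the E2-like ATG10 for ATG12. An E3-like complex of ATG12, ATG5 and ATG16L1 then serves the ATG8 proteins. ATG12 rose at both steps, ATG16L1 rose and then fell, ATG7 fell by 22h and ATG3 fell after 22h, while ATG5 passed in no comparison and ATG10 was below the filter.

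ATG16L1 brings the E3-like complex to the membrane, and was the single member past the thresholds in opposite directions in the consecutive steps. It was at 7.84, 3.55, 12.5 and 25.7 FPKM at 0h, at 50.5, 33.3, 36.4 and 34.5 at 22h, and at 4.83, 4.31, 9.70 and 3.54 at 46h. Each library of 22h was above each of the other stages, which overlapped with one another. The rise to 22h had a log2 change of 1.83 (SE 0.421, adjusted p = 0.00482) and the fall to 46h one of -2.65 (SE 0.421, adjusted p = 0.000135), and both passed in every alternative run. Against 0h, the level at 46h did not pass (-0.82, adjusted p = 0.105), though it did without replicate 2 of 0h, at -1.24, and without replicate 3 of 46h, at -1.08. This change ranged from -1.24 to -0.39 with 1 library left out, and the smallest fall over all alternatives was -0.21.

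ATG12 went from 11.5 ± 3.43 FPKM (SD, n = 4) at 0h through 21.8 ± 5.87 at 22h to 42.3 ± 3.57 at 46h. The steps had log2 changes of 0.87 (adjusted p = 0.0101) and 0.96 (adjusted p = 0.00315), and the total of 1.83 (SE 0.228, adjusted p = 7.09e-06) ranged from 1.7 to 2.42 over the alternatives. ATG5, to which ATG12 is joined, was the most abundant gene of the group, at 173, 183, 128 and 93.2 FPKM at 0h, 85.9, 153, 167 and 172 at 22h, and 186, 216, 211 and 229 at 46h. The libraries of 46h were above all others, while 0h and 22h overlapped. Its change of 0.59 at 46h missed the threshold against 0h (adjusted p = 0.0526) and against 22h (adjusted p = 0.0649), and passed in 7 and 4 of the 22 alternatives, among them median-of-ratios scaling, at 0.91 in both. With 1 library left out, the change ranged from 0.39 to 0.72 against 0h and from 0.35 to 0.69 against 22h.

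ATG3 was 18 ± 6.15 FPKM at 0h and 16.7 ± 2.8 at 22h, then 3.98 ± 1.03 at 46h, a change of -1.84 against 22h (SE 0.226, adjusted p = 1.24e-05). ATG7 was 6.33 ± 0.473 FPKM at 0h, 3.17 ± 0.946 at 22h and 2.83 ± 0.461 at 46h, so that its fall came at the first step (-0.84, standard error 0.175, adjusted p = 0.00263). With quantile normalization ATG7 no longer passed at 46h against 0h, at -0.24 in place of -0.94. ATG10 was above 0 in 1 library, replicate 2 of 0h at 0.34 FPKM, and was listed at 0 in the other 11. Within libraries, log2(ATG12/ATG3) lay between -1.58 and 0.34 at 0h and between 2.92 and 3.87 at 46h, again a pair chosen after the values were seen.

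VMP1, an endoplasmic reticulum protein that moves lipids between the sheets of a membrane and is needed for autophagosomes to form, was the most abundant of the genes of membrane and lipid supply. It was at 11.6, 13.7, 11.4 and 9.79 FPKM at 0h, 11.9, 19.1, 15.7 and 19.6 at 22h, and 35.7, 36.5, 38.8 and 41.1 at 46h. The 46h libraries stood above all others. Its rise passed at the second step (log2 change 1.17, standard error 0.173, adjusted p = 6.78e-05), after a change of 0.46 at 22h that did not pass (adjusted p = 0.0559). The change at 22h passed in 2 alternatives, and ranged from 0.38 to 0.62 over all of them. WIPI2, which binds the lipid made by the Beclin 1 complex and recruits ATG16L1, was 8.10 ± 2.18, 9.72 ± 3.01 and 8.59 ± 2.18 FPKM at the 3 stages and passed in no comparison (adjusted p from 0.485 to 0.781). ATG2B, a lipid transfer protein, was 1.49 ± 0.299, 1.86 ± 0.225 and 2.48 ± 0.552 FPKM, and its difference of 0.48 between 46h and 0h (adjusted p = 0.0152) did not reach 1.5-fold. It passed in 4 alternatives, at 0.70 with a pseudocount of 0.1 and with median-of-ratios scaling, at 0.60 with TPM without mitochondrially encoded genes and at 1.17 with quantile normalization. The other 3 genes of the group were below the filter, ATG2A at up to 0.07 FPKM, ATG9A at up to 0.12 and WIPI1 at 0.08 in 1 library and 0 in the others.

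**Figure D3:**
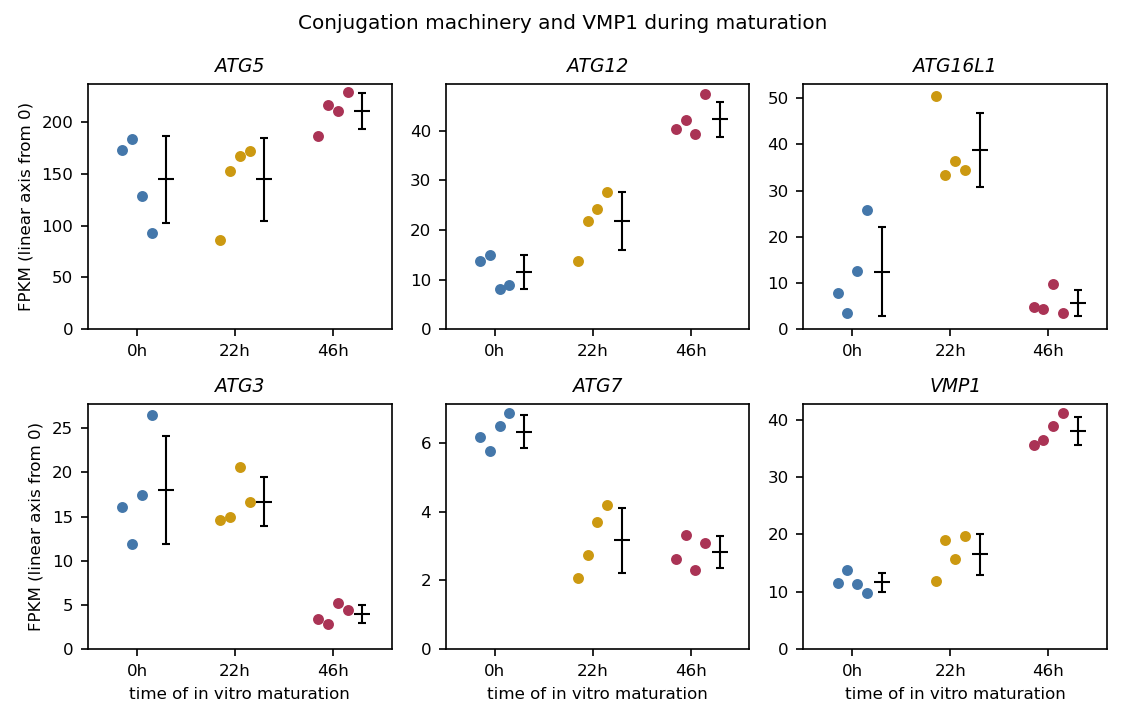
FPKM (linear axes from 0) of 5 conjugation genes and VMP1 by time of maturation, with a point per library and a bar for mean ± SD (n = 4). ATG16L1 is above 33 FPKM in the 4 libraries of 22h and below 26 elsewhere, ATG12 and VMP1 are highest at 46h, and ATG3 is at most 5.22 FPKM at 46h.

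Of the 4 mitophagy members, BNIP3, BNIP3L and PINK1 fell and FUNDC1 rose. BNIP3 and BNIP3L (also NIX) are related receptors of the outer mitochondrial membrane, PINK1 is the kinase that marks damaged mitochondria for Parkin, and FUNDC1 is an outer membrane receptor that acts under low oxygen.

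BNIP3 was at 7.41, 4.89, 11.67 and 22.1 FPKM at 0h, 4.71, 1.39, 3.24 and 1.81 at 22h, and 0.11, 0.15, 0.23 and 0.20 at 46h. The stages did not overlap, although 0h replicate 2 and 22h replicate 1 nearly met. Its log2 change was -1.62 at 22h against 0h (SE 0.355, adjusted p = 0.00368), -1.61 at 46h against 22h (adjusted p = 0.00193) and -3.23 at 46h against 0h (adjusted p = 2.08e-06). BNIP3L, the more abundant of the pair in 11 of the 12 libraries, was 21.4 ± 3.03 FPKM at 0h, 15.5 ± 1.05 at 22h and 5.60 ± 0.0497 at 46h. Its log2 change of -0.43 at 22h (adjusted p = 0.0305) did not reach 1.5-fold, and the second step of -1.32 passed (SE 0.140, adjusted p = 2.76e-06).

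PINK1 was 5.29 ± 3.14, 2.05 ± 0.903 and 0.140 ± 0.0337 FPKM at the 3 stages, a log2 change of -2.35 over the whole course (SE 0.290, adjusted p = 6.79e-06). The first step of -0.98 (adjusted p = 0.0192) was lost without replicate 2 of 22h (-0.76, adjusted p = 0.0662), with no filter and in a fit of the 2 groups compared. At 0h both BNIP3 and PINK1 were highest in replicate 4, at 22.1 and 9.83 FPKM.

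FUNDC1, on chromosome X from 39726194 to 39737663, was the most abundant mitophagy member, at 61.8, 67.8, 58.6 and 70.5 FPKM at 0h, 78.8, 84.3, 84.3 and 95.4 at 22h, and 133, 124, 140.1 and 141 at 46h. Its stages did not overlap and rose in order of time. The first step, 0.40 (adjusted p = 0.0370), was under the fold threshold, and the second, 0.65, passed (SE 0.136, adjusted p = 0.00132), though not with TPM, at 0.56. Over the whole course the change was 1.05 (adjusted p = 1.10e-05). Within libraries log2(FUNDC1/BNIP3L), also chosen after the values were seen, was 1.60 ± 0.29 at 0h, 2.46 ± 0.14 at 22h and 4.59 ± 0.08 at 46h (SD, n = 4). The share of FPKM from mitochondrially encoded genes, given with the libraries, rose over the same stages, and its part in these values was not tested.

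**Figure D4:**
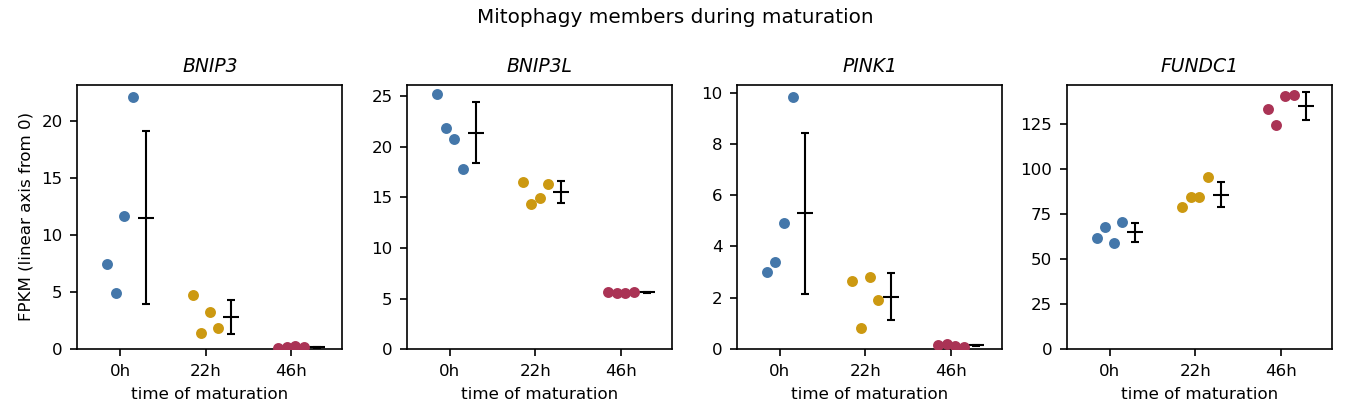
FPKM (linear axes from 0) of the 4 mitophagy members by time of maturation, with a point per library and a bar for mean ± SD (n = 4). BNIP3 and PINK1 are at or below 0.23 FPKM in each library of 46h, BNIP3L is at 5.54 to 5.65, and FUNDC1 is at 124 or more.

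The Beclin 1 complex makes the lipid signal PI3P at the site of the forming autophagosome. BECN1 itself was the most abundant of its genes, at 25.1, 26.9, 21.3 and 20.6 FPKM at 0h, 21.8, 30.7, 41.4 and 34.4 at 22h, and 30.3, 44.5, 31.8 and 36.8 at 46h. All libraries of 46h were above those of 0h. Its log2 change of 0.58 at 46h against 0h (adjusted p = 0.0199) was just under the fold threshold and passed in 8 of the 22 alternatives, among them median-of-ratios scaling, at 0.90. PIK3C3, the catalytic subunit (also VPS34), took the other direction, at 3.79, 4.29, 4.57 and 5.43 FPKM at 0h, 3.40, 2.64, 2.10 and 1.62 at 22h, and 1.22, 1.17, 1.02 and 1.37 at 46h, with no overlap between stages. It passed at each step, at -0.70 (adjusted p = 0.00693) and -0.62 (adjusted p = 0.00800), and at -1.32 over the whole course (SE 0.171, adjusted p = 1.06e-05). The second step was lost with median-of-ratios scaling, at -0.42, with quantile normalization, at -0.13, and without replicate 1 of 22h or replicate 3 of 46h. The first was lost with quantile normalization, at -0.52, and without replicate 4 of 22h, at -0.58.

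PIK3R4, the regulatory subunit, was 7.63 ± 1.31, 9.93 ± 0.776 and 3.56 ± 0.669 FPKM and fell at the second step (log2 change -1.27, standard error 0.162, adjusted p = 1.79e-05). Of the subunits that direct the complex, ATG14, which sends it to autophagosomes, fell by 22h, from 6.04 ± 1.03 to 3.65 ± 0.873 FPKM (-0.61, adjusted p = 0.0160), and was 3.95 ± 0.519 at 46h, -0.50 against 0h, which did not pass the fold threshold. The ATG14 call at 22h was lost in 4 alternatives, with quantile normalization (-0.44), with TPM without mitochondrially encoded genes (-0.57), and without replicate 4 of 0h (-0.52) or replicate 3 of 22h (-0.49). Its change at 46h against 0h passed in 2 alternatives, and ranged from -0.61 to 0.18 over all of them. UVRAG, which sends the complex to endosomes, was 1.45 ± 0.655, 1.59 ± 0.488 and 0.498 ± 0.311 FPKM and fell at the second step (-0.79, adjusted p = 0.00892). With quantile normalization that step was -0.20 and did not pass, and the change of UVRAG at 46h against 0h turned from -0.69 (adjusted p = 0.0137) to 0.08. Without replicate 4 of 0h, and with median-of-ratios scaling, the latter was -0.54 and did not pass.

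In the ULK complex, ATG101, a stabilizing subunit, was the most abundant gene over all 12 libraries, though below RB1CC1 at 46h, and the tested member that passed. It was at 5.76, 6.26, 6.61 and 13.2 FPKM at 0h, 5.99, 4.52, 9.48 and 6.28 at 22h, and 2.10, 2.52, 3.96 and 3.70 at 46h. The libraries of 46h were below all others, and its fall at the second step passed (log2 change -0.88, standard error 0.260, adjusted p = 0.0120), though not with quantile normalization, at -0.38. The scaffold RB1CC1 (also FIP200) was 4.59 ± 2.28, 6.44 ± 1.35 and 5.60 ± 1.25 FPKM, and ATG13, which links the kinase to it, 1.49 ± 0.372, 2.06 ± 0.292 and 1.73 ± 0.828. Neither passed, with adjusted p from 0.160 to 0.665. The kinases were below the filter. ULK2 lay between 0.61 and 1.56 FPKM in the libraries of 0h, 1.04 and 1.47 in those of 22h, and 0.20 and 0.48 in those of 46h, and ULK1 at 0.52 or less, below ULK2 in all 12 libraries.

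Cargo receptors bind both ubiquitin and ATG8 proteins. TAX1BP1 was the most abundant, at 609, 553, 683 and 669 FPKM at 0h, 687, 606, 557 and 451 at 22h, and 716, 1044, 458 and 705 at 46h, with overlap between each pair of stages. No comparison of TAX1BP1 passed (adjusted p from 0.278 to 0.659). SQSTM1, the gene of p62, was 34.0 ± 4.01, 48.3 ± 21.1 and 43.6 ± 13.4 FPKM and NBR1 2.20 ± 0.627, 1.39 ± 0.314 and 1.66 ± 0.554, and neither passed. OPTN, a receptor for mitochondria and bacteria, was the exception. It was at 17.8, 18.4, 23.6 and 36.4 FPKM at 0h, 18.4, 16.0, 17.1 and 14.3 at 22h, and 9.79, 8.57, 8.58 and 7.12 at 46h. All libraries of 46h were below those of 22h, and the change of -0.88 at that step passed (SE 0.206, adjusted p = 0.00298) but not with median-of-ratios scaling, at -0.58, or quantile normalization, at -0.38 (adjusted p = 0.118). TFEB, a transcription factor for autophagy and lysosome genes, was listed at 0 in all 12 libraries.

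FPKM is scaled to length, but a level still depends on the polyadenylated share of a transcript and on how shared reads are split. The order of related genes is therefore given as a description of FPKM only. ULK2 was above ULK1, ATG2B above ATG2A, WIPI2 above WIPI1 and ATG4A above ATG4B in 12 of 12 libraries, and BNIP3L above BNIP3 in 11 of 12, the exception being replicate 4 of 0h. The 10 members below the filter were ULK1, ULK2, ATG2A, ATG9A, WIPI1, ATG10, ATG4C, ATG4D, GABARAPL1 and TFEB, and a listed 0 among them may be a failed estimate.

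**Figure D5:**
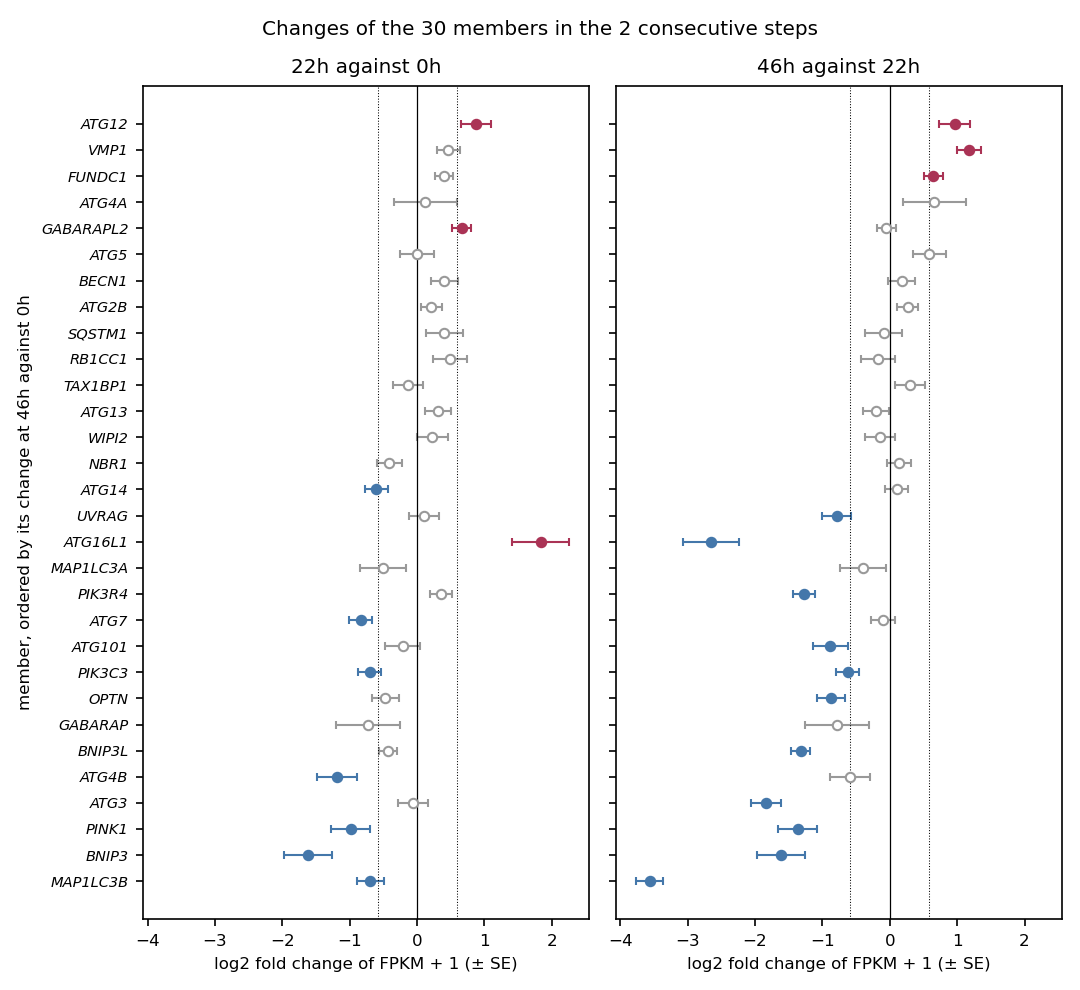
Log2 change of FPKM + 1 (± SE from limma) of the 30 members at 22h against 0h (left) and at 46h against 22h (right), ordered by their change at 46h against 0h. Filled points passed both thresholds (red higher, blue lower), open points did not, and dotted lines mark a fold change of 1.5; 3 points are filled red and 7 blue at the left, 3 red and 11 blue at the right.

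A wider list of 68 other genes of the pathway was compiled by hand, from its control by MTORC1 and AMPK to fusion with the lysosome. Of these, 64 were matched and 37 tested. The first step had 3 higher and 9 lower, the second 3 higher and 13 lower, and 46h against 0h 6 higher and 13 lower, or 32.4%, 43.2% and 51.4% of the genes tested, near the background in each. On the log2(FPKM + 1) scale, the 3 largest rises at 46h against 0h were those of TBK1, a kinase of cargo receptors, from 3.05 ± 2.88 to 15.3 ± 2.55 FPKM (log2 change 2.33, adjusted p = 0.000797), NRBF2, a subunit of the ATG14 form of the Beclin 1 complex, from 75.6 ± 19.7 to 181 ± 24.5 FPKM (1.28, adjusted p = 0.00105), and RHEB, the activator of MTORC1, from 476 ± 55.8 to 1086 ± 262 FPKM (1.16, adjusted p = 4.94e-05). The 3 largest falls on that scale were those of ZFYVE1 (also DFCP1), a PI3P-binding protein, from 20.6 ± 9.22 to 1.61 ± 0.255 FPKM (-2.96, adjusted p = 8.29e-07), VPS41, a subunit of the HOPS tether, from 13.2 ± 3.55 to 1.79 ± 0.316 FPKM (-2.32, adjusted p = 1.73e-07), and PHB2, an inner membrane mitophagy receptor, from 21.3 ± 7.63 to 3.68 ± 1.25 FPKM (-2.23, adjusted p = 1.28e-05).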

How the data were processed

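Per the labels and the study's methods, reads were checked with FastQC, trimmed with Trim Galore and aligned to Sscrofa11 with STAR, and genes were counted with HTSeq. The deposited files hold FPKM per Ensembl gene, which the authors made with RSEM for each library without pooling. The annotation release is not given in the sources used here. The authors tested counts with DESeq2. As the files hold FPKM, limma 3.58.1 (R 4.3.3, moderated with an intensity trend) was run here on log2(FPKM + 1), with stage as the only factor and the thresholds of the study. Simulated data with known changes were used to check this fit.

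Genes were named from the Ensembl gene name table (15029 of 31908 identifiers) and 172 more from a shortened copy of the study's supplementary gene list, which named 39 of 1657 shared identifiers differently. The name of BNIP3 rests on that list. Sequences and coordinates are RefSeq's for Sscrofa11.1, matched by symbol, for the mRNA whose 3′ UTR holds a hexamer near its end, then the longest. No entry was found there under the symbol VMP1, and for ATG12 the search window was too short.

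The members, the wider list and the tests were chosen with earlier results of these data known. Values in every library are given for the member with the largest passing change of each role group, the most abundant tested member, the tested ATG8 genes and members passing in opposite directions. Alternatives changed the pseudocount (0.1), the filter (none, or 5 FPKM), the scaling (median of ratios, quantiles, TPM, TPM after mitochondrially encoded genes were dropped) and the fit (each pair of stages by itself, no intensity trend, replicate number as block, each library left out), or dropped the fold threshold. Python 3.11.15, pandas 2.3.3, numpy 2.4.6, pysam 0.24.0 and matplotlib 3.10.9 made tables and figures.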

Additional observations from a re-analysis of the deposited data

Results flagged for a closer look

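In 90 groups of 4 libraries (30 members at 3 stages), 3 held a library that stood apart from the other 3 by Dixon's test at the 95% level, where chance gives about 1 in 20 groups. ATG13 was at 2.96 FPKM in replicate 3 of 46h, against 1.17 to 1.44 in the other libraries of that stage. ATG101 was at 13.2 FPKM in replicate 4 of 0h, against 5.76 to 6.61. UVRAG was at 0.96 FPKM in replicate 2 of 46h, against 0.29 to 0.39.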

How the results depend on the processing

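Of the 42 changes of single members that passed, 26 also passed in every alternative that could be computed and 16 were lost in at least 1, with quantile normalization losing 11. The changes of UVRAG and ATG14 at 46h against 0h turned to 0.08 and 0.18 with quantile normalization. Members passing at 22h against 0h numbered 4 with a mean of at least 5 FPKM (1 lower), because fewer genes were tested, and 5 were higher with quantile normalization. At 46h against 22h, higher members numbered 5 with median-of-ratios scaling, 8 with quantile normalization and 5 in a fit of only the groups compared, and lower members 7 with a mean of at least 5 FPKM and 7 with quantile normalization. For the whole course, 46h against 0h, 11 passed with a mean of at least 5 FPKM (7 lower), higher members numbered 8 with median-of-ratios scaling, 11 with quantile normalization and 7 with TPM without mitochondrially encoded genes, and lower members 8 with quantile normalization. Of the wider list, whose alternatives were added after the data were seen, 9 genes passed at 46h against 22h with a mean of at least 5 FPKM. The shares of all genes passing in these alternatives are not given here, so the counts are not a result about autophagy genes. The cause of the shifts with scaling was not tested. With each library left out in turn, 8 to 11, 14 to 16 and 16 to 21 members passed at 22h against 0h, 46h against 22h and 46h against 0h, with 3 to 4, 3 to 5 and 3 to 6 higher. In their deviations from the stage means, same-numbered libraries of different stages correlated over 0.1 in 3 of 12 pairs (r from -0.466 to 0.381). Differently numbered ones did so in 12 of 36 pairs (r from -0.428 to 0.532). These values showed no pairing by number. With deviations from means of 4 libraries they cannot exclude a batch shared between stages. The replicate block lost 0 of the 42 calls. The depth behind each value is unknown, which limits levels under 1 FPKM most.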
